A study of Drosophila melanogaster with 2 samples.

Results

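The Polycomb and Trithorax group genes described here are 33 protein-coding genes of Drosophila melanogaster, 19 of the Polycomb group and 14 of the Trithorax group, out of 13968 protein-coding genes and 18277 genes in all in the annotation used. They were selected by measured values as well as by function, because their binding signal in these peak lists was known when the list was drawn up. A gene was called covered when the summit of a peak, its highest point, lay inside the gene span widened by 1 kb at both ends. Of the 33 names, 31 were those of the annotation, and calypso (caly there) and lid (Kdm5 there) were found by their synonyms.

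The peaks came from chromatin immunoprecipitation and sequencing (ChIP-seq) of whole embryos, aged 0 to 24 h, of a transgenic fly strain in which the homeodomain transcription factor H2.0 is fused to eGFP. An antibody against GFP pulled down chromatin sheared by sonication, with fragments of 200 to 800 bp. There was 1 group of 2 biological replicates, both of the same tagged strain, and no second genotype, treatment or stage. The labels do not say which cells carried the fusion protein, a whole embryo mixes all tissues, and no control library entered the comparison here. A peak is therefore a site of signal in a mixture of cells, and binding by H2.0 itself was not tested.

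Polycomb group proteins keep genes silent through cell divisions, and Trithorax group proteins keep genes active. Polycomb repressive complex 2 (PRC2) methylates histone H3, Polycomb repressive complex 1 (PRC1) binds and compacts the marked chromatin, and DNA-binding members bring both to Polycomb response elements. Trithorax group proteins include histone methyltransferases, ATP-driven nucleosome remodellers and Mediator subunits, and in the fly embryo both groups are best known for holding the expression patterns of the Hox genes.

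The pooled list, made by the authors from both replicates and thresholded on the irreproducible discovery rate (IDR, a rank-based measure of agreement between 2 peak lists), held 4565 peaks on the chromosome arms, and the lists of replicates 1 and 2 held 3047 and 3110. Every peak in the pooled list had an IDR score of 830 or more. A further pooled list, ranked and not thresholded, held 134701 peaks, of which 4684 had an IDR of 0.01 or lower. The signal value of a peak is the authors' own and was not scaled between lists, and the depth of the libraries is unknown because only peak lists were used. Values for replicates 1 and 2 are those of the peak with the nearest summit, within 200 bp, in the ranked list of that replicate. A pooled value is therefore not the mean of the replicate values.

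Peaks with a signal of 500 or more lay at 7 of the 33 genes, at 9 sites in all, and the sequence around the summit of 8 of them is shown because these had the highest signals in the gene group. The trx and tara sites among them were in the ranked list only and are absent from every thresholded list. The ninth, a second peak of ph-p, overlaps an untranslated exon and is not shown. Each sequence is the 151 bases centred on the summit, read 5′ to 3′ on the plus strand of the dm6 assembly (RefSeq sequence). Capitals mark TAATTA, the core letters that many homeodomains bind, GAGAG or its reverse complement CTCTC, the core bound by the GAGA factor, GCCAT or its reverse complement ATGGC, the core of sites for the Polycomb protein Pho, and TGAGTG or its reverse complement CACTCA, a form of the site of the Zeste protein.
ash1 peak, chr3L:19590543-19590693: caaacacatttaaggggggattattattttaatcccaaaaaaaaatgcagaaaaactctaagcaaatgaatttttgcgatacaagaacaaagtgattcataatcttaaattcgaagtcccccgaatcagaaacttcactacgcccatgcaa
ph-p peak, chrX:2137286-2137436: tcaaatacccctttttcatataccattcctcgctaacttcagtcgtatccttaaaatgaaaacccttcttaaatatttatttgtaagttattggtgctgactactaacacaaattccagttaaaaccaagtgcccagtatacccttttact
brm peak, chr3L:15982927-15983077: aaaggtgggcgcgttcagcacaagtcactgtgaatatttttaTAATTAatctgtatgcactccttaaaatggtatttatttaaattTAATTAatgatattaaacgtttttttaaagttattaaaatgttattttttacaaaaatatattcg
trx peak, chr3R:14283808-14283958: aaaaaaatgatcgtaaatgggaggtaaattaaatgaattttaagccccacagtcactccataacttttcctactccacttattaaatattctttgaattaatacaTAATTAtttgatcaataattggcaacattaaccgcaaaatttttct
osa stronger peak, chr3R:17704335-17704485: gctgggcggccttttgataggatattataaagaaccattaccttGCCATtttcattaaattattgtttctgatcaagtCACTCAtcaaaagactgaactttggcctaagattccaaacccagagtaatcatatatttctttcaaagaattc
Trl peak, chr3L:14759411-14759561: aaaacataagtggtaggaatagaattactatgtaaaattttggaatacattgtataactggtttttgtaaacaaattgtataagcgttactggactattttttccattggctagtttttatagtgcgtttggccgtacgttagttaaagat
osa weaker peak, chr3R:17700522-17700672: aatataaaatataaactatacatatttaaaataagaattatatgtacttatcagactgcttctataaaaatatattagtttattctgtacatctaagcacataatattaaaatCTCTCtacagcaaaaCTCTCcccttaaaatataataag
tara peak, chr3R:16236910-16237060: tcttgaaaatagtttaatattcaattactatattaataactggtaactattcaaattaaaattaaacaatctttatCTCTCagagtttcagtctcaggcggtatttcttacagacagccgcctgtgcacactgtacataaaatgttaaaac
These stretches were rich in A and T, with a GC content of 21.2% to 34.4%. The ash1, ph-p and Trl stretches hold none of the marked letters.

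Of the 33 genes, 18 (54.5%) had a pooled summit, beside 28.1% of all protein-coding genes. In the ranked list at an IDR of 0.01 or lower, 19 (57.6%) had one, beside 28.5% of all, and the gene gained was mor. In the separate lists of both replicates, 16 (48.5%) had one, beside 17.7% of all. Taken by itself, the list of replicate 1 covered 17 of the 33, beside 20.9% of all, and that of replicate 2 covered 16, beside 22.6%. The 2 genes covered in the pooled list and not in both replicate lists were trr, in neither, and Utx, in replicate 1 alone. The gene tara was covered in both replicate lists, but by a different peak in each. Since the genes were chosen with these values known, the counts describe the list and nothing was tested.

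The genes of this group are long, with a median span of 8.54 kb against 2.16 kb for all protein-coding genes, and a long gene has more room for a summit. Among the 10 members under 5 kb, 2 were covered (20%), beside 21.8% of all genes of that length. Among the 17 members of 5 to under 20 kb, 10 were covered (58.8%), beside 42.3%. All 6 members of 20 kb or more were covered, beside 58.7%. The short members were thus covered about as often as other short genes, and the longer members more often than genes of their length. Because the members were chosen with these values known, this describes the list and was not tested. Of the longer members, trr, ash1, osa, kis and skd were covered only by summits nearest to a start of another gene. The covered members had a median span of 12.5 kb and the uncovered ones of 4.78 kb.

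**Figure D1:**
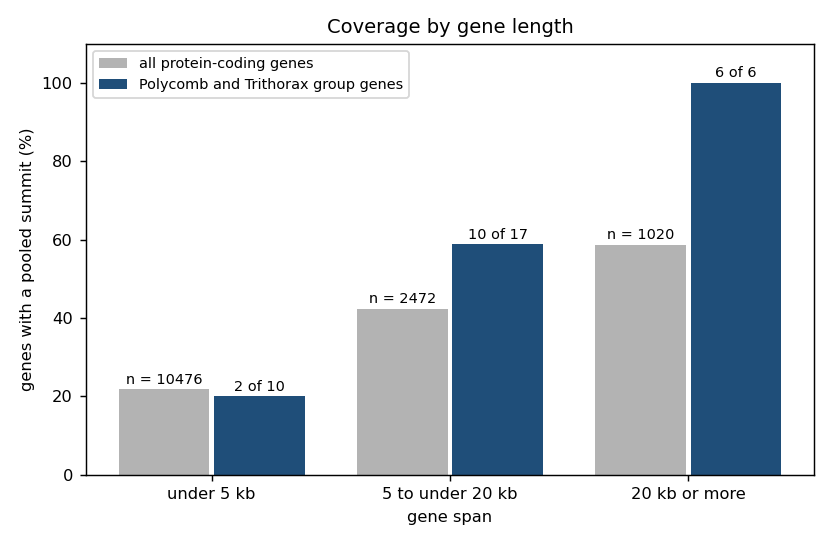
Share of genes with a pooled summit in the span widened by 1 kb (vertical axis, percent) in 3 classes of gene span, for all protein-coding genes (grey) and for the Polycomb and Trithorax group genes (blue), with the number of genes above each bar. The bars are about level under 5 kb, and the blue bar is higher in both longer classes.

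Within the group, 8 of 19 Polycomb group genes (42.1%) and 10 of 14 Trithorax group genes (71.4%) were covered, with median spans of 7.14 kb and 11.4 kb. This contrast depends on the gene assignment. All pooled summits of trr, ash1, osa, kis and skd in the Trithorax group lay nearest to a start of another gene. In the Polycomb group this held for calypso alone. The 18 covered genes held 36 pooled summits, 17 in Polycomb and 19 in Trithorax group genes. Of the 18 genes, 9 held a single summit and 9 held 2 or more, beside 27.7% of the 3926 covered protein-coding genes with 2 or more. That share was not matched for gene length, and the covered members are long, with a median span of 12.5 kb. The median signal of the 36 peaks was 134, with a range from 51.8 to 2069, against a median of 94.6 over the pooled list. A signal of 500 or more was found at 7 of the 36 (19.4%) and at 136 of the 4565 pooled peaks (2.98%). The members were chosen with these signals known, so the difference describes the list and was not tested. Of these strong peaks, those of ash1 and osa lay nearest to a start of another gene. Those of brm and Trl were equally near to a start of a neighbour, and those of ph-p lay nearest to ph-p.

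**Figure D2:**
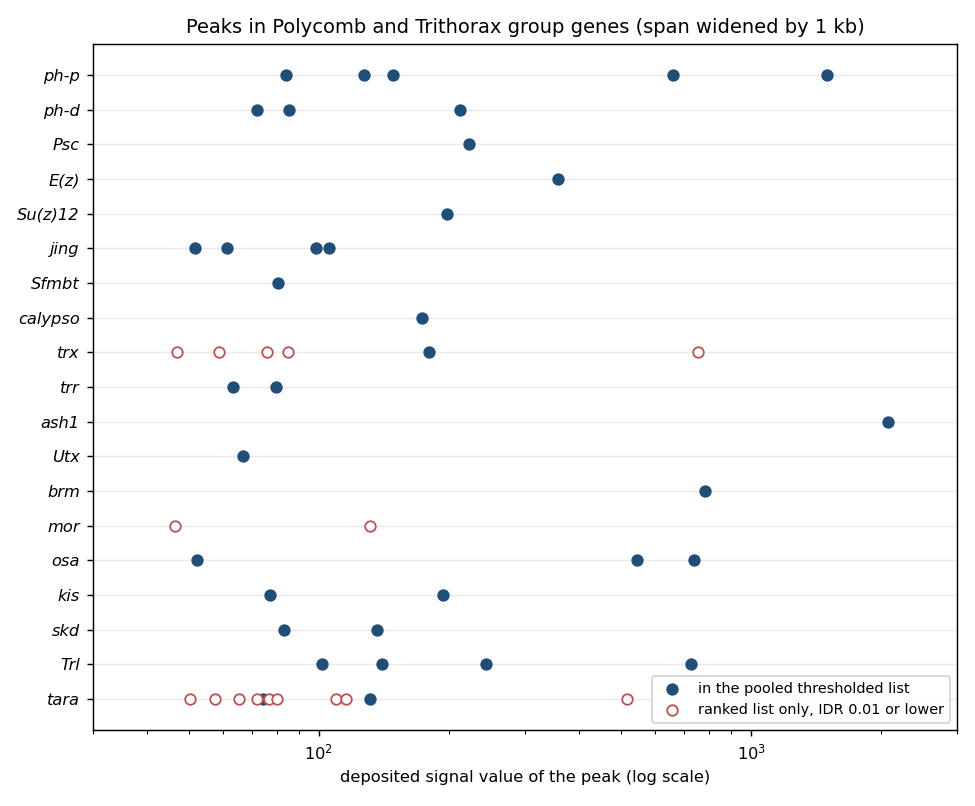
Deposited signal value (horizontal axis, log scale) of every peak in the 19 genes covered in either pooled list, 1 gene per row. Filled points are peaks of the pooled thresholded list and open points are peaks that reached an IDR of 0.01 in the ranked list only. Open points occur in trx, mor and tara and nowhere else, and the highest filled point is that of ash1 at 2069.

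Among the PRC1 genes, ph-p, ph-d and Psc were covered and Pc, Su(z)2, Sce and Scm were not. The neighbouring genes ph-p and ph-d encode Polyhomeotic proteins, which join into chains through their SAM domains. The gene ph-p (arm X, 2126210 to 2138371, minus strand) held 5 summits, more than any other member in the thresholded list. The strongest had a pooled signal of 1495, with 776 in replicate 1 and 718 in replicate 2, and lay in an intron 506 bp upstream of the nearest of the 3 annotated ph-p transcript starts. The next had a signal of 659.5, with 406 in replicate 1 and 259 in replicate 2, in the 5′ UTR 472 bp downstream of the first start. Replicate 1 was the higher at both. The other 3 had signals of 149, 127 and 84.0, the last of them 3 bp from a start of ph-p, and all 5 were in the thresholded list of each replicate. Among the 3011 covered protein-coding genes no longer than ph-p, many of them shorter, 3 had 5 or more summits, ph-p itself counted.

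In ph-d (2115727 to 2123286, minus strand) 3 summits were found, with signals of 212, 85.4 and 72.1. The strongest lay 760 bp upstream of the first start and measured 112 in replicate 1 and 92.3 in replicate 2. It was the only one of the 3 in the thresholded lists of both replicates. The peak at 85.4 was in that of replicate 2 alone and the peak at 72.1 in neither. Because ph-p and ph-d are duplicates, the sequence up to 100 bp on either side of each of their 8 summits was searched against the assembly for a second copy. None was found for 7 of them, and the weakest ph-d window matched elsewhere over 51 bp at 80.4% identity. Psc, whose RING-domain protein inhibits nucleosome remodelling within PRC1, held a single summit in an intron, 5082 bp downstream of its nearest start. It had a signal of 223 and measured 107 in replicate 1 and 107 in replicate 2, equal at this precision.

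Among the genes without a pooled PRC1 summit, Su(z)2, the neighbour and relative of Psc, had its best ranked peak 42 bp downstream of a start, with a signal of 50.4 and an IDR of 0.0503, and a ranked peak of higher signal, 64.5, had a weaker IDR. A summit within its widened span was also present in the authors' conservative list. Pc, whose chromodomain reads the PRC2 mark, had a best ranked IDR of 0.625 and a signal of 31.2. Sce, the ubiquitin ligase that modifies histone H2A, had a best ranked signal of 39.3, and Scm, a SAM and MBT domain protein, had 20.3. For Pc, Sce and Scm these signals are below the weakest thresholded peak of a covered member, which was 51.8.

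Among the PRC2 genes, E(z), Su(z)12 and jing were covered, and esc, escl, Pcl and Jarid2 were not. E(z), the methyltransferase subunit, had a summit in the 5′ UTR 51 bp downstream of its first start. Its signal was 358, with 234 in replicate 1 and 123 in replicate 2. Replicate 1 was the higher here, and both replicate lists kept the peak. Su(z)12, a core subunit needed for the activity of the complex, had a summit 113 bp downstream of its start, also in the 5′ UTR. Its signal was 198, with 103 in replicate 1 and 94.4 in replicate 2, which lie close together.

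The gene jing, whose zinc finger protein is related to the mammalian PRC2 cofactor AEBP2, is the longest member at 119.8 kb and held 4 intronic summits. Their signals were 105, 98.7, 61.2 and 51.8. The peaks at 105 and 61.2 lay nearest to the start of lncRNA:CR43905, at 4213 and 12898 bp. The peak at 98.7 lay nearest to the start of CG15233, at 5743 bp, and the peak at 51.8 nearest to a jing start, at 3597 bp. The strongest measured 46.4 in replicate 1 and 57.9 in replicate 2. The peak at 98.7 measured 73.1 in replicate 1 and 23.6 in replicate 2, the largest log2 ratio between replicates among the 36 peaks (1.63), and passed the threshold in replicate 1 alone. The other 2 were in neither replicate list. Of the 3895 covered genes no longer than jing, 168 held 4 or more summits. For the uncovered PRC2 genes, Jarid2, an accessory subunit, came nearest, with a ranked signal of 53.9, an IDR of 0.0192 and a summit 219 bp upstream of its start. The WD-repeat subunit gene esc had a ranked signal of 54.1 at an IDR of 0.0628, 31 bp upstream of its start. Its paralog escl (23.7) and the accessory subunit gene Pcl (26.8) had weaker best peaks.

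The PhoRC complex joins the DNA-binding proteins Pho and Phol to the MBT domain protein Sfmbt. Of these 3 genes Sfmbt was covered, with a summit 169 bp upstream of a start, a signal of 80.3 and near-equal values of 46.6 in replicate 1 and 46.5 in replicate 2. The best ranked peak of phol, beyond its 3′ end, had a signal of 56.1 and an IDR of 0.0160, and measured 20.7 in replicate 1 and 31.7 in replicate 2. The gene pho, on the small chromosome 4, had no peak at all in the ranked list. Of the PR-DUB pair, which removes ubiquitin from histone H2A, the hydrolase gene calypso was covered and Asx, its partner, was not. The calypso peak had a signal of 173, with 69.2 in replicate 1 and 96.6 in replicate 2, the higher value being that of replicate 2. It lay 543 bp upstream of calypso and 166 bp from the starts of CG42837 and Lipt1. The best Asx peak had a ranked signal of 33.3 and an IDR of 0.0284.

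**Figure D3:**
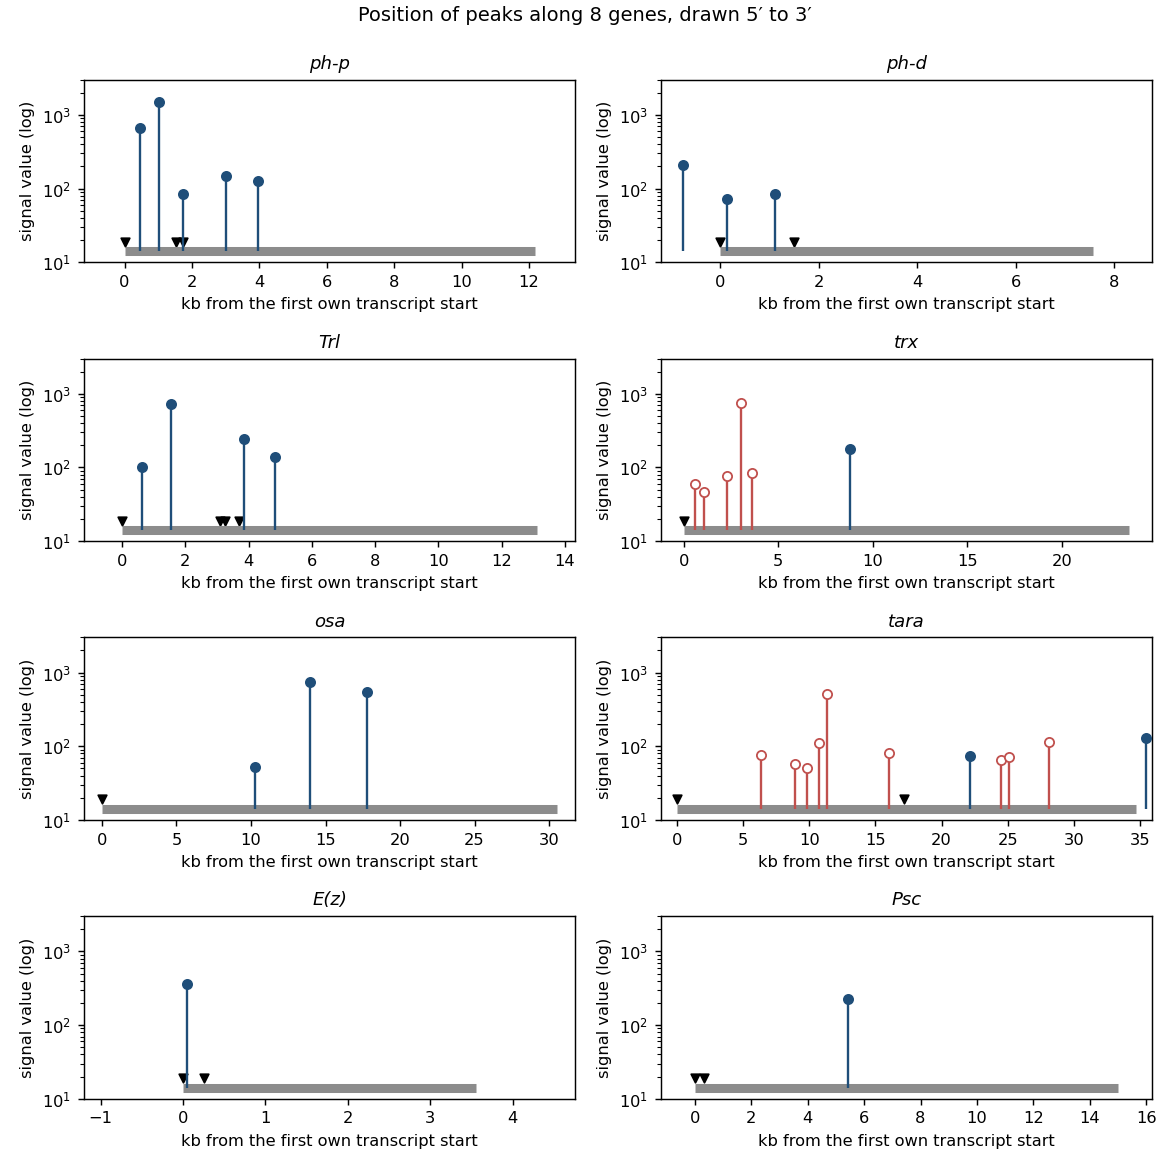
Position of peaks along 8 member genes drawn 5′ to 3′, with the distance from the first transcript start of the gene in kb (horizontal axis) and the deposited signal value (vertical axis, log scale). Grey bars are the gene spans, black triangles the annotated transcript starts, filled blue points peaks of the pooled thresholded list and open red points peaks that reached an IDR of 0.01 in the ranked list only. The peaks of ph-p, ph-d and Trl crowd the 5′ part of the gene, while those of osa lie more than 10 kb inside it.

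Among the histone methyltransferase and demethylase genes of the Trithorax group, trx, trr, ash1 and Utx were covered and ash2 and lid were not. The peak assigned to ash1, whose protein methylates histone H3, was the strongest of the entire pooled list at 2069. It measured 1069 in replicate 1 and 1009.5 in replicate 2 and was the highest in each replicate list as well. Its summit did not lie in ash1 itself. It was 155 bp beyond the 3′ end and 8137 bp from the ash1 transcript start, and 94 bp from the start of the next gene, CG14100, so by distance to a start it belongs to CG14100. Utx, a demethylase that removes the PRC2 mark, had a summit 212 bp downstream of a start with a signal of 66.8. It measured 48.1 in replicate 1 and 27.0 in replicate 2, and passed the threshold in replicate 1 alone.

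The gene trx, which encodes the methyltransferase that gave the Trithorax group its name (arm 3R, 14263358 to 14286903, minus strand), had 1 summit in the thresholded list and 5 more past the IDR in the ranked list. The thresholded one lay in an intron 8803 bp downstream of the start. It had a signal of 180.3, with 96.6 in replicate 1 and 81.3 in replicate 2. The strongest of the 5, absent from every thresholded list, had a signal of 754, with 431 in replicate 1 and 326 in replicate 2, and lay in an intron 3020 bp downstream of the start. Its IDR was 1e-05 in the ranked list of each replicate, the lowest value found at any member peak. The peaks of ash1 and brm had this value too, but so did weaker ones, such as that of Psc with a signal of 223. The other 4 trx peaks of the ranked list alone had signals of 84.9, 75.8, 58.8 and 47.0. The thresholded list thus shows trx with the peak of 180.3 alone.

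Both peaks of trr, which encodes a methyltransferase acting mainly at enhancers, lay outside the gene and at the starts of neighbours. The peak at 79.8 was 154 bp upstream of trr and 152 bp from the start of mRpL16. The peak at 63.3, beyond the 3′ end, was 118 bp from the start of Coa8. Neither passed the threshold in a replicate list. The demethylase gene lid had a ranked signal of 61.0 and an IDR of 0.0212, 24 bp upstream of a start, and ash2, a subunit shared by these methyltransferase complexes, had 25.95 at an IDR of 0.340.

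Among the chromatin remodeller genes, brm, osa and kis were covered in the thresholded list and mor in the ranked list. Brm is the ATPase of the fly SWI/SNF complex, Mor a core subunit and Osa the subunit that defines its BAP form. The brm peak had a signal of 783, with 407 in replicate 1 and 375 in replicate 2. Its summit lay 133 bp upstream of brm and also 133 bp from the start of the divergent gene Arl1, so the distance gives it to neither. The peak of mor, 163 bp upstream of its start, had a ranked signal of 131, with 60.9 in replicate 1 and 66.0 in replicate 2. It was missing from every thresholded list although its pooled IDR was 0.000114, as was a weaker mor peak at 46.6.

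The gene osa (arm 3R, 17687818 to 17718350, minus strand) held a pair of strong peaks deep in the gene. The stronger had a signal of 739, with 392 in replicate 1 and 362 in replicate 2, 13940 bp downstream of the osa start and 715 bp from the start of the non-coding gene lncRNA:CR46035. The weaker had a signal of 546, with 315 in replicate 1 and 235 in replicate 2, 17753 bp downstream and 144 bp from the start of lncRNA:CR46036. Both replicate lists held both peaks, and replicate 1 was the higher at each. The remaining osa peak, at 52.4, lay in a coding exon. In kis, which encodes a CHD-type remodeller, the stronger peak had a signal of 193, with 102 in replicate 1 and 88.8 in replicate 2. It lay 1581 bp upstream of the nearest kis start, inside the gene, and 24 bp from the start of lncRNA:CR44222. A weaker kis peak, at 77.3, was in the list of replicate 2 alone.

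Of the pair of Mediator kinase module genes, skd, which encodes Med13, was covered and kto, which encodes Med12, was not. The stronger skd peak had a signal of 137, with 71.7 in replicate 1 and 67.3 in replicate 2, 418 bp upstream of skd and 63 bp from the start of Pdss2. A peak at 83.0 lay in an intron 16379 bp downstream of a start. The best peak of kto had a ranked signal of 41.0 and an IDR of 0.107.

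Trl encodes the GAGA factor, a DNA-binding protein that opens chromatin at promoters and Polycomb response elements (arm 3L, 14747929 to 14761049, minus strand), and held 4 summits. The strongest had a signal of 726, with 419 in replicate 1 and 314 in replicate 2, in an intron 1524 bp upstream of the nearest Trl start and at the same distance from a start of CG42507. The next had a signal of 244, with 147 in replicate 1 and 87.6 in replicate 2, 136 bp downstream of a start. The remaining signals were 139.8 and 102. Replicate 1 was the higher at the 3 strongest and replicate 2 at the weakest, and 3 of the 4 peaks were in both replicate lists. Of the 3062 covered genes no longer than Trl, itself counted, 22 held 4 or more summits.

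The gene tara, which encodes a nuclear protein found through its genetic interaction with Polycomb and Trithorax mutants (arm 3R, 16225651 to 16260329, plus strand), differed most between the lists. In the thresholded list it held 2 summits, at 131 and 74.4, the first of them beyond the 3′ end and 3040 bp from the start of bor. The peak at 131 passed the threshold in replicate 2 alone and the peak at 74.4 in replicate 1 alone. In the ranked list tara held 9 more. The strongest of these had a signal of 517, with 297 in replicate 1 and 215 in replicate 2, in an intron 5831 bp upstream of the nearest tara start. The other 8 lay between 50.3 and 115.

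The 16 summits of trx, mor and tara that reached the IDR and were left out of the thresholded lists all lay on arm 3R. They made up 30.8% of the 52 summits of the gene group in the ranked list. Over the entire ranked list, 119 of 4684 such summits (2.54%) were left out, 71 of them on 3R. Of the 16, 3 also reached an IDR of 0.01 in the ranked lists of both replicates, 1 in trx and 2 in tara. Per the file listings, 1 additional file went into making each thresholded list. Its content was not seen here, so whether it removed these sites as unreliable regions was not tested, and the trx peak of 754 and the tara peak of 517 carry that doubt.

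Of the 36 member peaks inside the threshold of the pooled list, the weakest was that of jing at 51.8, with an IDR score of 835, and the next was that of osa at 52.4, with a score of 886. For genes covered in neither pooled list, the nearest peaks outside the threshold were those of phol, with a score of 745, and Jarid2, with 713. The 16 left-out summits of trx, mor and tara had scores from 831 to 1000, so the score alone does not separate the 2 sides. Signals on the 2 sides of the threshold thus overlapped, since the best-ranked peaks of phol (56.1) and lid (61.0), among others, exceeded the weakest covered peaks.

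The 2 replicates ranked the peaks of the gene group alike. Across the 36 summits replicate 1 values ran from 24.5 to 1069 with a median of 70.4, and replicate 2 values from 21.8 to 1009.5 with a median of 64.2. The median log2 ratio of replicate 1 to replicate 2 was 0.11 with an SD of 0.49, beside 0.12 and 0.64 over 4465 pooled peaks with a value in both. Replicate 1 was the higher at 26 of 36, beside 58.2% of the 4465. The Spearman correlation across the 36 summits was 0.866 and across all 4465 it was 0.724, as a description only, since peaks share their 2 libraries and several lie in 1 gene. In the thresholded lists 22 of the 36 peaks (61.1%) were in both replicates, 8 in 1 and 6 in neither, beside 49.2% of all pooled peaks in both. A deposited q-value under 0.05 was given for 30 of the 36 (83.3%), beside 69.4% of all.

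**Figure D4:**
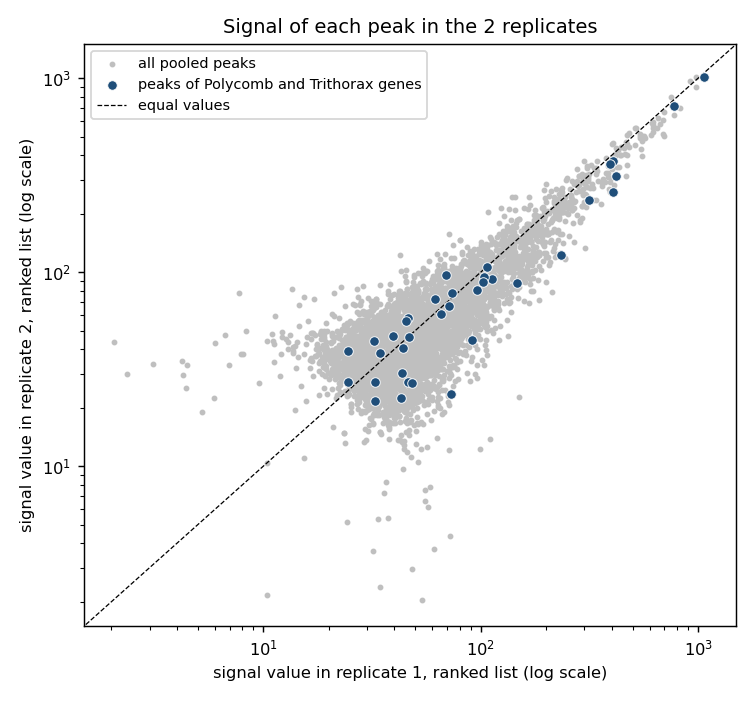
Signal value of each pooled peak in the ranked list of replicate 1 (horizontal axis, log scale) and of replicate 2 (vertical axis, log scale), with all pooled peaks in grey, the 36 peaks of Polycomb and Trithorax group genes in blue and the line of equal values dashed. The blue points follow the grey cloud, spread more at low values, and 26 of 36 fall on the replicate 1 side of the line, beside 58.2% of all.

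Most peaks of the gene group lay away from the transcript starts of their own gene. Of the 36 summits, 12 (33.3%) were within 500 bp of a transcript start of the member itself, and 17 (47.2%) were within 500 bp of a start of any gene, beside 46.0% of all pooled summits. For 15 of the 36 the nearest start belonged to another gene. Counting only summits nearest to a start of the member, a shared distance included, 12 genes remained covered, and calypso, trr, ash1, osa, kis and skd were lost. The matching shares of all protein-coding genes and of all pooled summits were not computed. Whether such a loss is usual is therefore not known. In Polycomb group genes 7 of 17 summits were within 500 bp of an own start, with a median distance of 543 bp, and in Trithorax group genes 5 of 19 were, with a median of 2950 bp. By annotation 17 of the 36 (47.2%) were intronic, 8 in a 5′ UTR, 7 intergenic, 2 in other exons, 1 in a coding exon and 1 in a 3′ UTR, where 47.2% of all pooled summits were intronic, 7.86% in a 5′ UTR and 38.6% intergenic.

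The letters of several sites known from Polycomb response elements and promoters were counted within 100 bp on either side of each summit, on both strands, a window counting once however many copies it held and copies of GAGAG being free to overlap. GAGAG was in 9 of 36 windows (25%, exact 95% binomial interval 12.1% to 42.2%), beside 22.9% of all 4565 windows. GCCAT was in 9 of 36 (25%), beside 27.2%. TGAGTG was in 4 (11.1%), beside 9.77%, and TAATTA in 5 (13.9%), beside 15.8%. TATCGATA, which the promoter factor Dref binds, was in 1 window (2.78%), that of Sfmbt, beside 3.09%, and GGTCACAC, the core of the site of the promoter factor M1BP, was in none, for which the exact interval reaches 9.74%, beside 1.84%. At this width the shares over the gene group were close to those over the pooled list for all 6, and the interval covers counting error only. Closer to the summit, within 50 bp, GAGAG was in 1 of the 36 windows (2.78%), beside 9.40% of all, and GCCAT in 7 (19.4%), beside 14.8%. The GC content of these windows had a median of 37.3%, with a range from 25.9% to 56.2%, against a median of 35.8% for all pooled windows.

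By chromosome arm, pooled summits were found at 3 of 3 members on X, beside 28% of all protein-coding genes of that arm, and at 6 of 10 on 3L, beside 30.2%. They were found at 3 of 6 on 2L, beside 26.2%, at 3 of 6 on 2R, beside 27.9%, and at 3 of 7 on 3R, beside 28.9%. The single member on 4, pho, had none, beside 2.5% of the genes there.

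Beyond these members, 50 other genes of the Polycomb and Trithorax groups were examined, with a median span of 6.26 kb. Of these 20 (40%) were covered in the pooled list, beside 28.1% of all protein-coding genes, 7 of 18 in the Polycomb and 13 of 32 in the Trithorax group. A summit in the thresholded lists of both replicates was found for 13 of the 50, beside 17.7% of all. Their strongest peaks had a median signal of 96.1, against 196 for the 18 covered members, whose choice drew on these values. Mi-2, the ATPase of a nucleosome remodelling complex, had the highest signal at 360.5, with 189.8 in replicate 1 and 172 in replicate 2. The histone acetyltransferase gene nej followed at 245, with 144 in replicate 1 and 106 in replicate 2. After these came the insulator protein gene mod(mdg4) at 212, the remodeller gene Chd1 at 174, and Dsp1, an HMG-box protein linked to Polycomb response elements, at 172. No thresholded peak of the 50 reached the signal of 500 that 7 peaks of the members did, and tna (161), psq (125), Ncoa6 (119), CtBP (113) and l(3)73Ah (98.4) were weaker still. The strongest peaks of Mi-2, nej, mod(mdg4), Chd1, Dsp1 and Ncoa6 all lay nearest to a start of another gene. That of mod(mdg4) was 27 bp from the start of pre-mod(mdg4)-E, and that of Chd1 was 104 bp from the start of Bem46. Those of tna, psq, CtBP and l(3)73Ah lay nearest to their own starts. Kdm2, a demethylase gene on arm 3R named here after its values were seen, had no thresholded summit and 5 in the ranked list at an IDR of 0.01 or lower.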

How the data were processed

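The members and all gene and motif lists were chosen with earlier results of these data known. The deposited peak lists hold, by the narrowPeak layout that the file listings name, a signal value per peak, an IDR score scaled by the authors and −log10 of a q-value, all on build dm6. The deposited ranked lists add −log10 of the IDR over the list. The authors made lists for each replicate and for both together. No peak caller or aligner is named in the sources used here. Depth is unknown, so signal values carry no counting error, and the signal was not scaled between lists. Peak lists only were used, not reads or the control library.

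Summits were placed on the Ensembl release 115 annotation after arm lengths were checked against the assembly. Gene spans were widened by 1 kb on each side. The ranked list was used at a −log10 IDR of 2 or more. Summits within 200 bp were taken as the same site in another list. Letters were counted up to 100 bp on either side of a summit. All 33 members are named, and other pathway genes only where covered in both replicate lists, up to 10 by signal, apart from Kdm2, which was added after its values were seen. No test was made, and the only interval, exact binomial at 95%, covers counting error. Second copies were searched with blastn 2.17.0. Other steps used python 3.11.15, pandas 2.3.3, numpy 2.4.6, scipy 1.17.1 and matplotlib 3.10.9, and the counting was tested on simulated data. Alternatives covered the peak list, each replicate's list alone, stronger peaks, the gene assignment, the IDR threshold, the promoter distance and the motif window.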

Additional observations from a re-analysis of the deposited data

How the results depend on the processing

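Of 45 alternative values for the main counts and shares, 39 kept within 1.5 times the main count, or within the binomial interval of the main share. The number of member summits (36) became 23 with only peaks at or above the median signal and 56 with gene spans widened by 5 kb. The number of members covered in both replicate lists (16) became 9 with spans not widened. The share of windows with GAGAG (25%) became 2.78% within 50 bp of the summit and 52.8% within 200 bp, and that with GCCAT (25%) became 55.6% within 200 bp. The shares over all pooled summits moved with the window too, to 9.40% and 44.9% for GAGAG and to 51.2% for GCCAT. From a single replicate list, 16 to 17 members, 25 to 27 summits, 33.3% to 36% of summits at an own start, 28% to 29.6% of windows with GAGAG and 25.9% to 28% with GCCAT were found. Members covered numbered 13 with spans not widened and 25 with spans widened by 5 kb, where the share of all protein-coding genes was 12.01% and 47.8%. The ranked list in place of the thresholded one for the summit counts, and windows away from any start, were chosen after seeing the data. Percentiles of the highest signal of each member in other lists were computed too, but the lists differ in length and the highest peak can be another one, so no change is read from them. No paired analysis was possible because there was 1 group. Depth is unknown, so weak peaks cannot be weighed by their counts.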
